A study of Mus musculus with 24 samples.

Results

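Messenger RNA of 9 chemokine genes and of Csf1 was followed across 8 mouse astrocyte lines. The genes are Ccl2, Ccl7, Ccl5, Cxcl1, Cxcl5, Cxcl10, Cxcl12, Cxcl16, Cx3cl1, and Csf1. They were chosen by name as signals that draw in or sustain leukocytes, and all 10 were among the 14427 genes of the count table, matched by Ensembl identifier to GENCODE M21 symbols. Levels were measured by RNA-seq in 24 libraries, with 3 replicates per line.

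Chemokines are small secreted proteins that bind G protein-coupled receptors on leukocytes and set the direction in which these cells move. Ccl2 and Ccl7 act through Ccr2 on monocytes, Ccl5 acts on T cells, monocytes, and eosinophils, Cxcl1 and Cxcl5 act through Cxcr2 on neutrophils, and Cxcl10 acts through Cxcr3 on activated T cells. Astrocytes are a known source of several of them in the injured or inflamed brain. Cxcl12 is made in many tissues at rest and binds Cxcr4 and Ackr3, whereas Cxcl16 and Cx3cl1 (fractalkine) are made as membrane-anchored proteins that proteases can release. Csf1 is the growth factor on which microglia and macrophages depend, and its receptor is Csf1r.

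The study asked whether mutant p53 acts differently in male and female astrocytes. Cortical astrocytes of at least 3 newborn Trp53 f/- pups were combined for each sex, so that each sex is represented by 1 primary culture (m1 or f1 in the labels), and sex and culture cannot be told apart. In the 6 mutant lines, a retrovirus carried Trp53 with the R172H, Y202C, or Y217C mutation together with eGFP, eGFP-positive cells were sorted, and a lentivirus with Cre and a puromycin resistance gene then removed the remaining floxed allele. The male and female p53 KO lines received the Cre lentivirus alone. All 8 lines therefore lack endogenous p53 and carry the Cre lentivirus, and the mutant lines differ from p53 KO by the mutant protein and also by the retrovirus and the eGFP sort, which cannot be told apart. Cells were grown in DMEM/F12 with serum and used at passages 10 to 15. Replicates are independent thaws and platings according to the study's methods, so errors and p-values describe repeat cultures of the same line, not separate animals.

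The 24 libraries held 52787288 to 136503809 counts each (median 80684345). Trp53 was at 48.9 CPM in female p53 KO and 50.9 CPM in male p53 KO (CPM, the count relative to library size, scaled by edgeR's TMM method), and between 593 and 3709 CPM in the mutant lines. The transgene level was not matched between the sexes, since the male log2 effect on Trp53 exceeded the female effect by 1.92 for Y202C and the difference was -1.67 for Y217C. Gfap, a marker of astrocytes, was at or below 0.257 CPM on average in 7 lines and at 6.93 CPM in male Y217C. Of 10 astrocyte genes, Gfap among them, 9 were measured, and their summed level lay between 226.1 and 680.9 CPM. The study assessed the purity of its Trp53 f/- astrocytes by immunofluorescence for the GFAP protein. Of 8 genes of fibroblasts and meningeal cells, all were measured, and their summed level lay between 17110 and 63770 CPM. Of the genes of microglia and macrophages, Csf1r, Tmem119, and Cd68 were read beside the results, and Aif1, Ptprc, Itgam, and Cx3cr1 were not analysed here. In cultures measured in bulk, fewer cells of a type and less RNA per cell cannot be told apart.

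RefSeq promoters were at hand for 5 of the 10 genes, Csf1, Cxcl1, Cxcl10, Cxcl12, and Cx3cl1. The 250 bases upstream of each start were searched on both strands for a kB motif (GGGA, any 4 bases, then CC, bound by NF-kB), the core of the interferon response element (GAAA, any 2 bases, then GAAA, bound by interferon regulatory factors), and a TATA box (TATAAA). Of 32817 mouse promoters in RefSeq (GRCm38.p6), 17.6% held the kB motif, 2.97% the interferon element, and 12.4% the TATA box. The promoters of Cxcl1, Cxcl10, and Csf1 are printed because they hold a match and because their genes moved in different ways. Capitals mark kB and interferon element matches, some of which overlap on opposite strands, and each is written 5′ to 3′ on the strand of its gene, without bases that lie past the GENCODE start.
Cxcl1, chr5:90890995-90891240, plus strand: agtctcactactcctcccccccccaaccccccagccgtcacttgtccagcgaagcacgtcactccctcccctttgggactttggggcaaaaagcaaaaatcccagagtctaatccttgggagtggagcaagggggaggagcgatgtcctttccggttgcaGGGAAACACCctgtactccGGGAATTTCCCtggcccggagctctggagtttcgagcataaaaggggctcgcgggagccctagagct
Cxcl10, chr5:92348890-92349139, minus strand: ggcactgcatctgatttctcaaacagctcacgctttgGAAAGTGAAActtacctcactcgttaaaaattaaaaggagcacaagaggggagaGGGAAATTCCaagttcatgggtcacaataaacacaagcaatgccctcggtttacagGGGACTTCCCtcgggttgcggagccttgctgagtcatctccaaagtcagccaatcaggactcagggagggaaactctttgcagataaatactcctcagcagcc
Csf1, chr3:107760470-107760719, minus strand: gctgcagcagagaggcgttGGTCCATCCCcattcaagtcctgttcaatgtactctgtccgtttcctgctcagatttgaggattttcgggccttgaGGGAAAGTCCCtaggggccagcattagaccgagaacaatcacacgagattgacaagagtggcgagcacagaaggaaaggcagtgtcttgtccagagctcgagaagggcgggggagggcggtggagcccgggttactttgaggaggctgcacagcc
Cxcl1 held kB matches at 2 places, at 1 of which matches on both strands overlap, and no interferon element. Cxcl10 held kB matches at 2 places and, farther upstream, the only interferon element found among the 5 promoters. Csf1 held kB matches alone, and the Cxcl12 promoter held none of the 3 motifs. In Cx3cl1 the only match was TATAAA at 6 to 1 bases before the RefSeq start, past the GENCODE start, so it is not counted as a TATA box here. A match describes the letters of the window and is not evidence of binding.

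**Figure D1:**
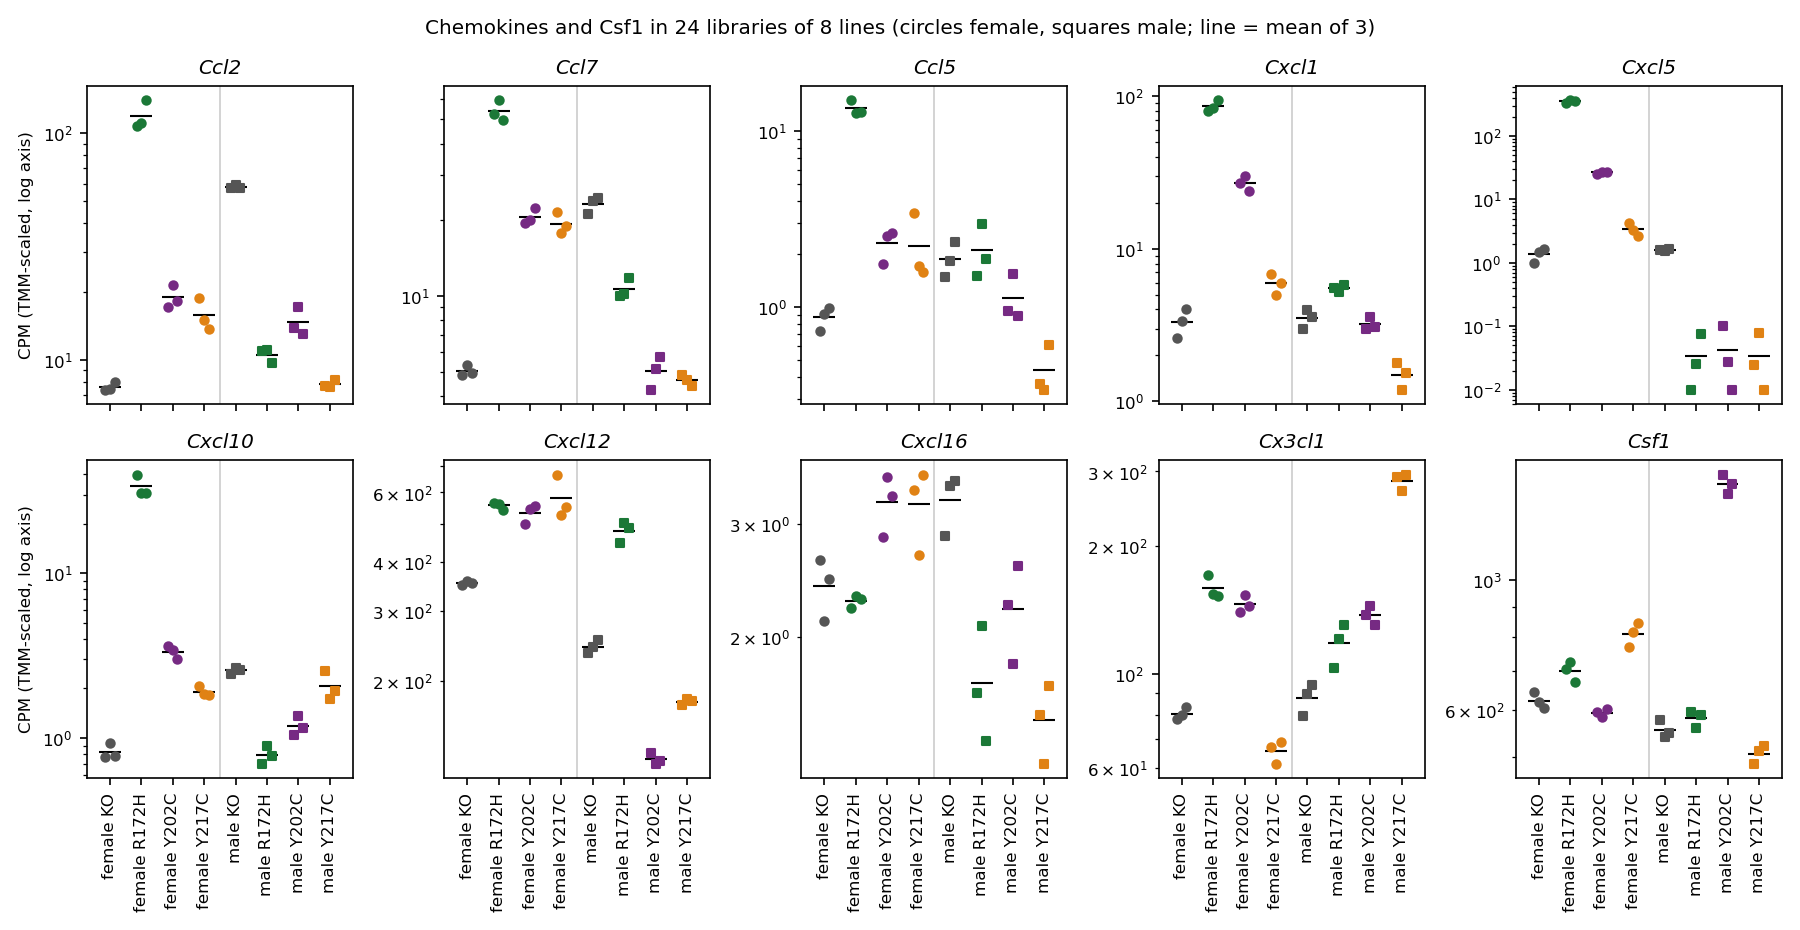
Level of the 10 genes in each of the 24 libraries, in TMM-scaled CPM on a logarithmic axis that differs between panels. Circles are female and squares male libraries, colors mark genotype, black lines are means of 3 libraries, and values of 0 are drawn at 0.01. Female R172H stood highest for Ccl2, Ccl7, Ccl5, Cxcl1, Cxcl5, and Cxcl10, male Y217C for Cx3cl1, and male Y202C for Csf1.

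In the female lines most of the 10 genes were higher with mutant p53, and in the male lines most of those called were lower. Each mutant line was compared with the p53 KO line of its sex by the quasi-likelihood F test of edgeR, p-values were corrected over all 14427 genes by the procedure of Benjamini and Hochberg, and a gene was called at an adjusted p of at most 0.05. Against female p53 KO, 9 of the 10 genes were called in R172H and all 9 rose, where 69.7% of all genes were called and 34.4% rose. In female Y202C 9 were called and all rose, where 68.6% of all genes were called and 34.3% rose. In female Y217C all 10 were called, 9 rose and Cx3cl1 fell, where 56.7% of all genes were called, 28% higher and 28.7% lower. Because calls were this common, the number of calls says little about these genes, and the direction and the size of the changes carry the description. The median log2 fold change of the 10 genes was 3.68 in R172H, 1.36 in Y202C, and 0.95 in Y217C, and the median over all genes lay between -0.01 and 0.004.

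Against male p53 KO the 10 genes divided. In R172H 3 rose and 5 fell, where 40.7% of all genes were called, 20.2% higher and 20.5% lower. In Y202C 2 rose and 7 fell, where 73% were called, 37.6% higher and 35.4% lower. In Y217C 1 rose and 8 fell, where 70.5% were called, 34.9% higher and 35.6% lower. Their median log2 fold change was -0.44, -0.85, and -1.19 in the same order. The 3 comparisons of a sex share the libraries of its p53 KO line, so they are not independent of each other. Library ranges of mutant and p53 KO did not overlap for 9, 10, and 10 of the 10 genes in female R172H, Y202C, and Y217C, where this held for 75.4%, 70.4%, and 66% of all genes. For the same mutations in males it held for 8, 8, and 9 genes, where the shares of all genes were 52.9%, 74.9%, and 77%.

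**Figure D2:**
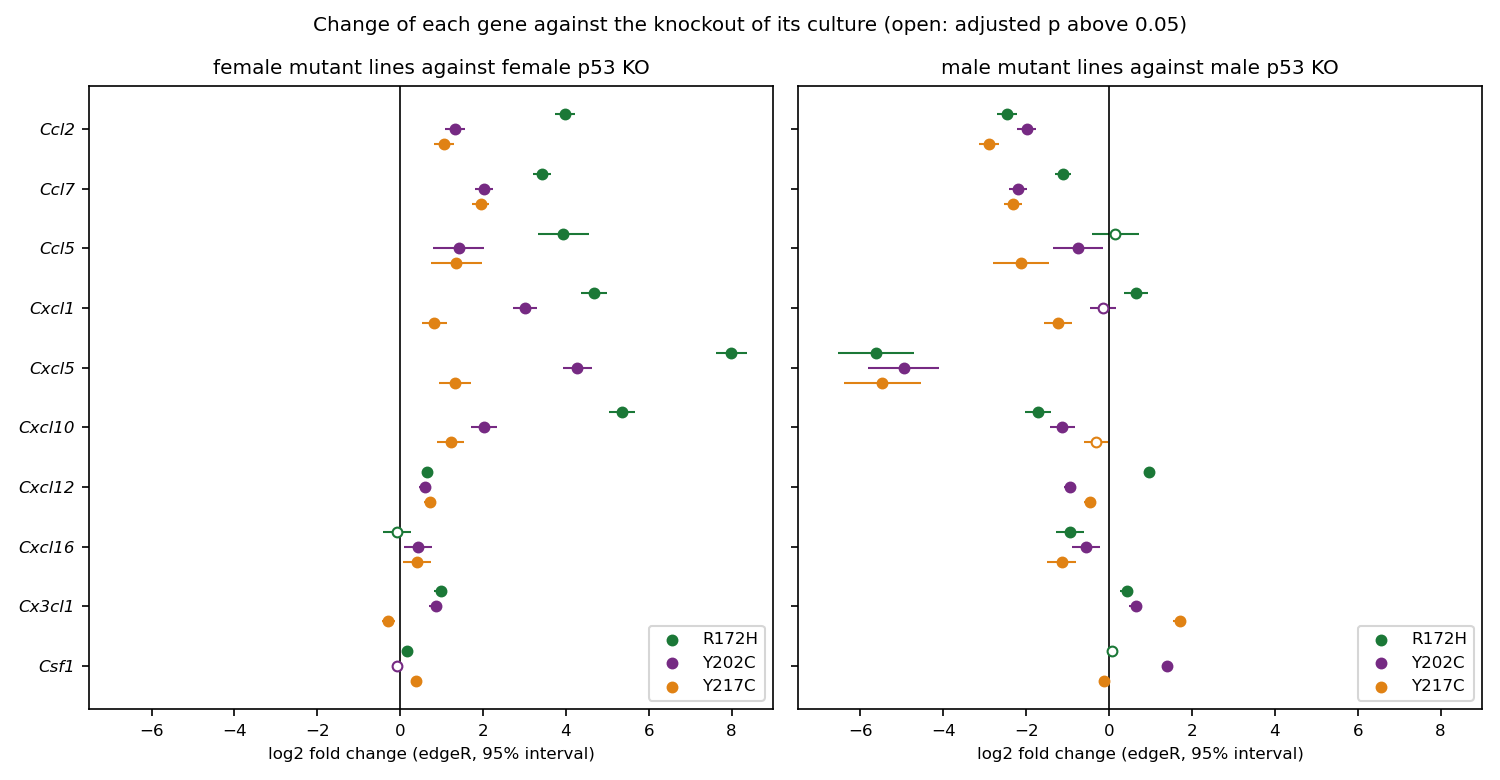
Log2 fold change of each gene against the p53 KO line of the same sex, female lines on the left and male lines on the right. Points are edgeR estimates with 95% intervals, and open points had an adjusted p above 0.05. Cxcl5 spans the widest range, from 7.99 in female R172H to -5.63 in male R172H.

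Ccl2 (ENSMUSG00000035385, chromosome 11 from 82035571 to 82037453, plus strand, GRCm38) is the main attractant of monocytes that carry Ccr2. In female p53 KO the 3 libraries were at 7.36, 7.42, and 7.97 CPM, and in female R172H at 107.8, 110.9, and 139.7 CPM. Every female R172H library was above every other library of the series. Female Y202C, at 17.1, 21.3, and 18.2 CPM, and female Y217C, at 18.7, 15.0, and 13.7 CPM, overlapped each other and stood above female p53 KO. The log2 fold change against p53 KO was 3.98 ± 0.12 (SE, adjusted p = 1.187e-18) in R172H, 1.32 ± 0.12 (adjusted p = 5.707e-10) in Y202C, and 1.06 ± 0.12 (adjusted p = 3.879e-08) in Y217C. In males the order was turned. Male p53 KO was at 57.5, 59.3, and 57.2 CPM, the second highest line, and R172H at 10.9, 10.99, and 9.71 CPM. Male Y202C was at 13.8, 17.1, and 13.0 CPM and male Y217C at 7.64, 7.58, and 8.16 CPM, so that every male mutant library was far below the lowest male p53 KO library. On the log2 scale Ccl2 fell by 2.46 ± 0.11 in R172H (adjusted p = 2.807e-14), fell by 1.99 ± 0.11 in Y202C (adjusted p = 8.409e-14), and fell by 2.90 ± 0.12 in Y217C (adjusted p = 1.627e-16). The level of male Y217C overlapped that of female p53 KO, the lowest line. Gm17268, a gene on the opposite strand, overlaps Ccl2 and is not in the table.

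Ccl7 (ENSMUSG00000035373, chromosome 11 from 82045712 to 82047525, plus strand) attracts the same monocytes and starts 8258 bases beyond the end of Ccl2. Its libraries were at 4.85, 5.29, and 4.95 CPM in female p53 KO, 52.3, 59.3, and 49.7 CPM in R172H, 19.3, 19.9, and 22.3 CPM in Y202C, and 21.5, 17.6, and 18.8 CPM in Y217C. The rise was 3.42 ± 0.11 on the log2 scale in R172H, 2.03 ± 0.10 in Y202C, and 1.94 ± 0.10 in Y217C, with a largest adjusted p of 1.606e-13. Unlike Ccl2, Ccl7 in female Y202C and Y217C came close to the male p53 KO line, whose libraries were at 20.97, 23.6, and 24.3 CPM. Male R172H was at 9.98, 10.1, and 11.8 CPM, Y202C at 4.23, 5.13, and 5.69 CPM, and Y217C at 4.84, 4.64, and 4.37 CPM. Ccl7 fell by 1.11 ± 0.10 in male R172H, by 2.20 ± 0.10 in Y202C, and by 2.31 ± 0.10 in Y217C, with a largest adjusted p of 2.969e-09.

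Ccl5 (ENSMUSG00000035042, chromosome 11 from 83525778 to 83530518, minus strand), which attracts T cells and monocytes, was low in most lines. Female p53 KO was at 0.727, 0.909, and 0.985 CPM and female R172H at 14.9, 12.6, and 12.8 CPM, a 15.4-fold difference with a log2 fold change of 3.94 ± 0.30 (adjusted p = 2.908e-11). Female Y202C was at 1.75, 2.53, and 2.63 CPM and female Y217C at 3.41, 1.70, and 1.57 CPM, with log2 fold changes of 1.41 ± 0.30 and 1.36 ± 0.30. Male p53 KO was at 1.47, 1.82, and 2.33 CPM. Male R172H, at 1.501, 2.93, and 1.87 CPM, overlapped it, with a log2 fold change of 0.15 and a 95% interval from -0.42 to 0.72 (adjusted p = 0.709). Male Y217C was at 0.362, 0.336, and 0.603 CPM, and Ccl5 fell by 2.13 ± 0.33 (adjusted p = 4.015e-06). In male Y202C, at 0.941, 1.53, and 0.885 CPM, the fall of 0.76 ± 0.29 passed the test (adjusted p = 0.0229) although the ranges overlapped. That call was lost without male p53 KO replicate 3 (adjusted p = 0.119), male Y202C replicate 1 (adjusted p = 0.0951), or male Y202C replicate 3 (adjusted p = 0.0871).

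Cxcl5 (ENSMUSG00000029371, chromosome 5 from 90759360 to 90761624, plus strand), a neutrophil attractant, moved over the widest range. Female p53 KO was at 0.982, 1.46, and 1.68 CPM, and female R172H at 329.8, 362.3, and 356.9 CPM. The 254.9-fold difference, a log2 fold change of 7.99 ± 0.18 (adjusted p = 5.238e-21), was the 42nd largest rise among all 14427 genes in that comparison. Female Y202C was at 25.6, 27.1, and 27.3 CPM, 19.4-fold above p53 KO, and female Y217C at 4.25, 3.27, and 2.67 CPM, 2.499-fold above it. These 4 female lines followed one another without overlap. Male p53 KO was at 1.58, 1.57, and 1.64 CPM, and in the male mutant lines the gene was nearly silent. The 3 libraries held 0, 2, and 6 counts in male R172H, 10, 2, and 0 in male Y202C, and 2, 6, and 0 in male Y217C, against 543 counts summed over male p53 KO. Scaled for depth, male p53 KO was 51.9-fold above R172H, 31.9-fold above Y202C, and 46.4-fold above Y217C. The 95% intervals of these ratios, which cover counting error only, ran from 26.2 to 121, from 18.1 to 62.1, and from 23.4 to 108. Each fall passed edgeR's test, with a largest adjusted p of 4.994e-10. The estimates rest on a few reads. In R172H the log2 value was -4.93 without replicate 1 and -7.00 without replicate 3, in Y202C it was -6.66 without replicate 1, and in Y217C it was -6.81 without replicate 2.

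Cxcl1 (ENSMUSG00000029380, chromosome 5 from 90891241 to 90893115, plus strand) acts on the same receptor as Cxcl5. Female p53 KO was at 2.58, 3.37, and 4.06 CPM, R172H at 80.2, 83.4, and 93.8 CPM, Y202C at 26.9, 30.2, and 23.8 CPM, and Y217C at 6.84, 5.01, and 5.93 CPM. The log2 fold change was 4.68 ± 0.15 in R172H, 3.02 ± 0.14 in Y202C, and 0.83 ± 0.15 in Y217C, with a largest adjusted p of 4.318e-05. The female order was thus that of Cxcl5, with smaller steps. In males it differed from Cxcl5. Male p53 KO was at 2.997, 3.97, and 3.55 CPM, and R172H at 5.56, 5.19, and 5.82 CPM, a rise of 0.65 ± 0.14 on the log2 scale (adjusted p = 0.000918). Male Y202C was at 2.98, 3.59, and 3.07 CPM, overlapping the p53 KO range, with a log2 fold change of -0.14 and a 95% interval from -0.45 to 0.18. Male Y217C was at 1.77, 1.19, and 1.53 CPM, and Cxcl1 fell by 1.23 ± 0.17 (adjusted p = 5.596e-07).

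Cxcl10 (ENSMUSG00000034855, chromosome 5 from 92346638 to 92348889, minus strand) is induced by interferons and attracts T cells that carry Cxcr3. It overlaps Art3 on the opposite strand, a gene not in the table, and the strand of counting is not given in the sources used here. Female p53 KO was at 0.766, 0.935, and 0.782 CPM and female R172H at 39.8, 30.9, and 30.6 CPM, a 41.0-fold difference (log2 5.36 ± 0.16, adjusted p = 5.538e-19). Female Y202C was at 3.62, 3.42, and 3.02 CPM and female Y217C at 2.08, 1.86, and 1.82 CPM, with log2 fold changes of 2.02 ± 0.16 and 1.22 ± 0.16. No library outside female R172H exceeded 3.62 CPM. Male p53 KO was at 2.45, 2.66, and 2.60 CPM. Male R172H, at 0.697, 0.897, and 0.777 CPM, and male Y202C, at 1.05, 1.35, and 1.14 CPM, lay below it, with falls of 1.71 ± 0.16 and 1.13 ± 0.15. Male Y217C, at 2.57, 1.73, and 1.94 CPM, was not called (log2 -0.31, 95% interval from -0.60 to -0.02, adjusted p = 0.055). Without its replicate 1 the value was -0.50 and was called (adjusted p = 0.0043).

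Cxcl12 (ENSMUSG00000061353, chromosome 6 from 117168535 to 117181367, plus strand), the ligand of Cxcr4, was abundant in every line and moved less. Female p53 KO was at 349, 358.9, and 354.3 CPM, R172H at 565.2, 562.2, and 541.3 CPM, Y202C at 499.7, 546.5, and 555.4 CPM, and Y217C at 666.1, 525, and 550.7 CPM. The 3 female mutant lines overlapped each other and all stood above p53 KO, with log2 fold changes of 0.65 ± 0.07, 0.59 ± 0.07, and 0.71 ± 0.07. In males the mutations parted. Against 235, 243.7, and 254.6 CPM in p53 KO, R172H was higher at 447.7, 500.9, and 486.4 CPM (log2 0.97 ± 0.07). Y202C was lower at 131.5, 123.3, and 125.5 CPM, and Y217C was lower at 173.4, 179.9, and 178.4 CPM. Cxcl12 fell by 0.95 ± 0.07 in male Y202C and by 0.46 ± 0.07 in male Y217C, and the largest adjusted p of the 6 comparisons was 1.094e-06.

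Cxcl16 (ENSMUSG00000018920, chromosome 11 from 70453983 to 70459984, minus strand), a membrane-anchored ligand of Cxcr6 and a scavenger receptor, was low throughout, between 1.27 and 3.58 CPM over the 24 libraries. It overlaps Zmynd15 on the opposite strand, which is not in the table. In males it was at 2.86, 3.43, and 3.495 CPM in p53 KO and fell by 0.95 ± 0.17 in R172H, by 0.57 ± 0.17 in Y202C, and by 1.14 ± 0.17 in Y217C, with a largest adjusted p of 0.00371. In females R172H did not differ beyond the error (log2 -0.08, 95% interval from -0.42 to 0.26). The female rises of 0.43 in Y202C (adjusted p = 0.0252) and 0.42 in Y217C (adjusted p = 0.035) each depended on single libraries. The Y202C call was lost without female p53 KO replicate 2 (adjusted p = 0.104), Y202C replicate 2 (adjusted p = 0.09), or Y202C replicate 3 (adjusted p = 0.0506). The Y217C call was lost without female p53 KO replicate 2 or 3 (adjusted p = 0.135 and 0.0616) or Y217C replicate 1 or 3 (adjusted p = 0.0981 and 0.1295).

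Cx3cl1 (ENSMUSG00000031778, chromosome 8 from 94772009 to 94782427, plus strand), through which neurons and other cells signal to Cx3cr1 on microglia, followed another order. It was at 78.3, 79.9, and 83.3 CPM in female p53 KO and at 79.6, 89.7, and 93.8 CPM in male p53 KO. Female R172H, at 171.3, 153.8, and 152.1 CPM, and female Y202C, at 139.7, 153.1, and 144.6 CPM, were higher, with log2 fold changes of 0.98 ± 0.08 and 0.86 ± 0.08. Female Y217C was the lowest line, at 67.3, 61.2, and 68.9 CPM, and there Cx3cl1 fell by 0.29 ± 0.08 (adjusted p = 0.00209). In males every mutant line was above p53 KO. R172H was at 103.3, 120.9, and 130.5 CPM, Y202C at 137.2, 144.4, and 130 CPM, and Y217C at 290.4, 270, and 295 CPM, with log2 fold changes of 0.43 ± 0.08, 0.64 ± 0.08, and 1.70 ± 0.08. Cx3cl1 was the only one of the 10 genes that rose in all 3 male mutant lines. Male Y217C, its highest line, was also the line with the highest mean Gfap and with 56.6 ± 6.89 CPM (SD, n = 3) of Aldh1l1, an astrocyte enzyme at 0.629 ± 0.11 CPM in male p53 KO. Gfap exceeded 1 CPM in no other line and is in the table only through male Y217C, so its rise there follows from the filter. Of 9 measured astrocyte genes, Gfap among them, 7 were called higher and none lower against male p53 KO. Their summed level was 555.8 to 600.4 CPM against 384.8 to 406.3 CPM in male p53 KO. The part of this difference in the Cx3cl1 level was not tested.

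Csf1 (ENSMUSG00000014599, chromosome 3 from 107741048 to 107760469, minus strand) was the most abundant of the 10 genes by CPM in every line. It was at 644.2, 619.2, and 606 CPM in female p53 KO and at 577.7, 539.5, and 548.5 CPM in male p53 KO. Male Y202C stood apart from all other lines at 1515, 1403, and 1461 CPM, a log2 fold change of 1.395 ± 0.049 (adjusted p = 1.649e-17). The other changes were small. Female Y217C, at 768.5, 817.7, and 844.9 CPM, rose by 0.38 ± 0.05, and female R172H, at 705, 726.1, and 670.3 CPM, rose by 0.17 ± 0.05 (adjusted p = 0.00361). Female Y202C (log2 -0.07, adjusted p = 0.222) and male R172H (log2 0.07, adjusted p = 0.295) were not called. In male Y217C, at 486.1, 511.4, and 520.5 CPM, Csf1 fell by 0.13 ± 0.05 (adjusted p = 0.0175). That call was lost when counts were scaled by library totals alone (log2 -0.03, adjusted p = 0.586), without male p53 KO replicate 1 (adjusted p = 0.0916), or without male Y217C replicate 1 (adjusted p = 0.0731). Csf1r was at most 3.18 CPM in any library. Among microglia and macrophage genes, Cd68 was at 22.9 ± 2.26 CPM in male Y202C and 3.53 ± 0.291 CPM in male p53 KO, and Tmem119 at 20.5 ± 1.24 and 73.0 ± 8.29 CPM (SD, n = 3). Their part in the Csf1 level was not tested. In females Tmem119 was at 42.4 to 46.2 CPM in p53 KO and 69.4 to 113 CPM in the mutant lines, and its part in the female chemokine levels was not tested.

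Whether a mutation acted differently in the male and the female culture was tested as the male effect minus the female effect. For R172H the difference was called for 9 of the 10 genes, 8 of them negative and 1 positive, where 58% of all genes were called, 28.3% negative and 29.7% positive. For Y202C it was called for 9, 8 of them negative and 1 positive, where 68% of all genes were called, 33.5% negative and 34.5% positive. For Y217C it was called for all 10, 9 of them negative and 1 positive, where 54.8% of all genes were called, 27.4% negative and 27.5% positive. The median difference of the 10 genes was -3.92, -2.66, and -1.81 on the log2 scale in the same order, and the median over all genes lay between -0.004 and 0.021. For Ccl2, with opposite directions in the sexes for every mutation, the difference was -6.44 ± 0.17 for R172H, -3.30 ± 0.16 for Y202C, and -3.96 ± 0.16 for Y217C. For Ccl7 it was nearly the same for the 3 mutations, at -4.53 ± 0.14, -4.23 ± 0.15, and -4.26 ± 0.15. The 3 differences of a gene include the same gap between male and female p53 KO, so they are not independent. On the log2 scale male p53 KO was higher by 2.93 for Ccl2 and by 2.19 for Ccl7.

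The positive differences were each found in 1 mutation. Cxcl12 rose more in male than in female R172H, by 0.32 ± 0.09 (adjusted p = 0.00522), Csf1 differed by 1.46 ± 0.07 for Y202C, and Cx3cl1 by 1.99 ± 0.11 for Y217C. Csf1 for R172H (-0.10, 95% interval from -0.25 to 0.04, adjusted p = 0.209) and Cx3cl1 for Y202C (-0.21, 95% interval from -0.43 to 0.01, adjusted p = 0.0777) were not called. The latter was called when counts were scaled by library totals alone (-0.29, adjusted p = 0.0202), with a stricter filter on low counts (adjusted p = 0.0279), in a fit of the compared lines only (adjusted p = 0.035), without female Y202C replicate 3 (adjusted p = 0.0451), or without male p53 KO replicate 1 (adjusted p = 0.0248). These differences compare 1 male with 1 female culture, and the transgene levels differed between them for Y202C and Y217C, as given above. The part of the Trp53 level was not tested.

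**Figure D3:**
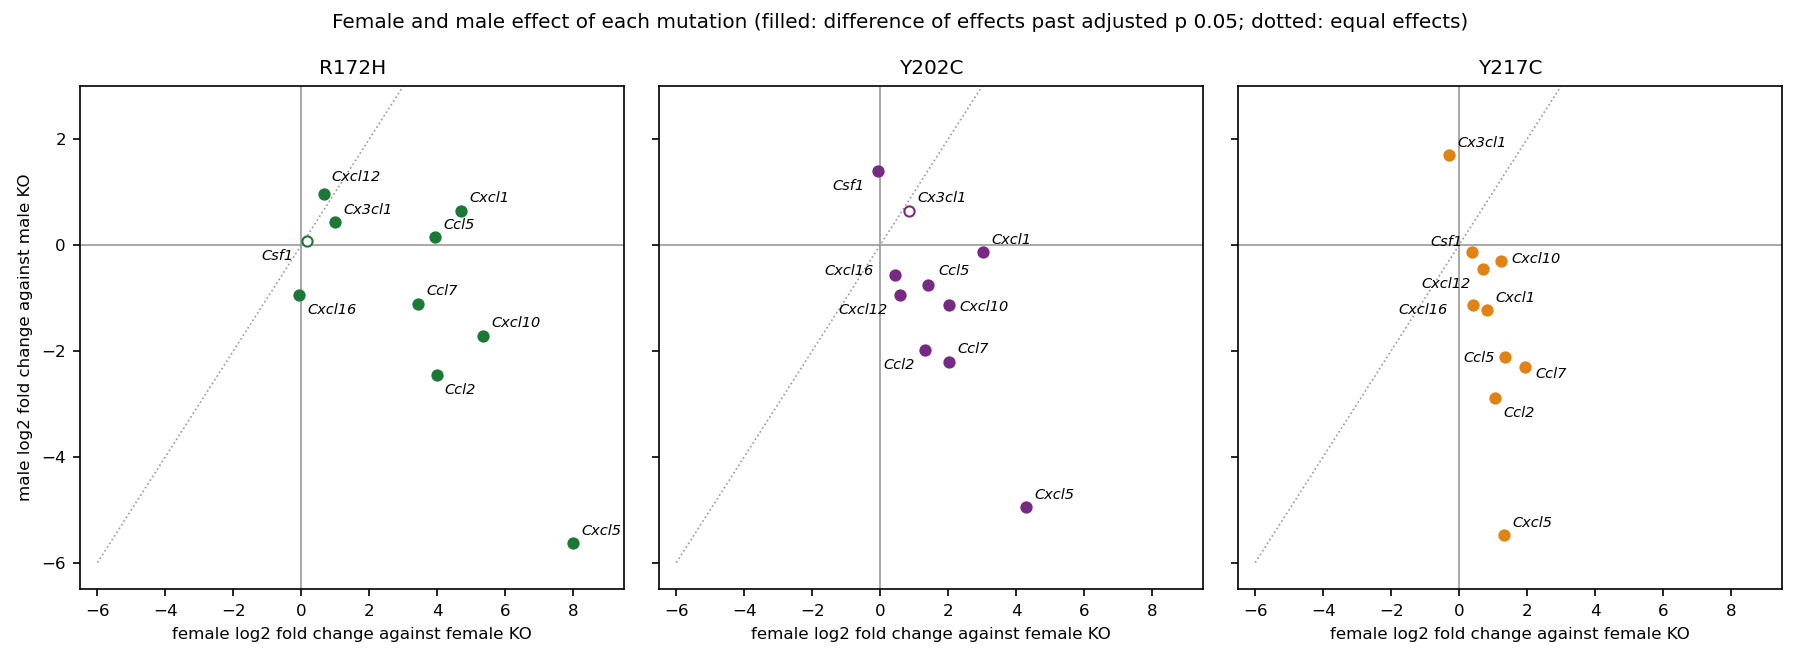
Female log2 fold change (horizontal) against male log2 fold change (vertical) of the 10 genes for each mutation, both against the p53 KO line of the same sex. Filled points had a difference of effects with an adjusted p of at most 0.05, and the dotted line marks equal effects. Most points lie to the right of and below that line, with Cxcl5 farthest away, and Csf1 for Y202C and Cx3cl1 for Y217C lie on the other side.

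The p53 KO lines, against which the effects are read, differed too. Of the 10 genes, 7 were called between male and female p53 KO, where 31.1% of all genes were called, 17.2% higher and 13.8% lower in males. The library ranges did not overlap for 7, where this held for 51.2% of all genes. Ccl2 was 7.64-fold higher in male p53 KO (log2 2.93 ± 0.12, adjusted p = 2.154e-15), Ccl7 4.57-fold, Cxcl10 3.13-fold, and Ccl5 2.16-fold. Cxcl12 was lower in males by 0.53 ± 0.07 on the log2 scale, from 354.1 ± 4.94 CPM in female to 244.4 ± 9.80 CPM in male p53 KO (SD, n = 3). Cxcl1 (log2 0.08, 95% interval from -0.23 to 0.39), Cxcl5 (log2 0.22, from -0.19 to 0.64), and Cx3cl1 (log2 0.13, from -0.03 to 0.28) were not called, although Cx3cl1 was called by limma (adjusted p = 0.02). A pair of smaller calls depended on single libraries. Cxcl16, higher in males by 0.44 (adjusted p = 0.0411), was lost without female p53 KO replicate 2 or 3 (adjusted p = 0.162 and 0.0781) or male p53 KO replicate 2 or 3 (adjusted p = 0.120 and 0.138). Csf1, lower in males by 0.17 ± 0.05 (adjusted p = 0.0105), was lost without female p53 KO replicate 1 (adjusted p = 0.0617) or male p53 KO replicate 2 (adjusted p = 0.0577).

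Levels of different genes were compared per kilobase of exon. Csf1 was the highest of the 10 genes on this scale in 7 lines, with 38.7% of their summed CPM per kb in female Y202C and 79% in male Y202C. In female R172H Cxcl5 was highest with 27.8%, followed by Csf1 with 19.6% and Ccl2 with 15.5%. In female p53 KO Cxcl5 held 0.37%. Cx3cl1 held 35.3% in male Y217C and 9.15% in male p53 KO, and Ccl2 held 20.9% in male p53 KO and at most 4.07% in the male mutant lines. The sum over the 10 genes was 199.3 CPM per kb in female p53 KO, 676.4 in female R172H, and between 205.3 and 350.1 in the other 6 lines.

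**Figure D4:**
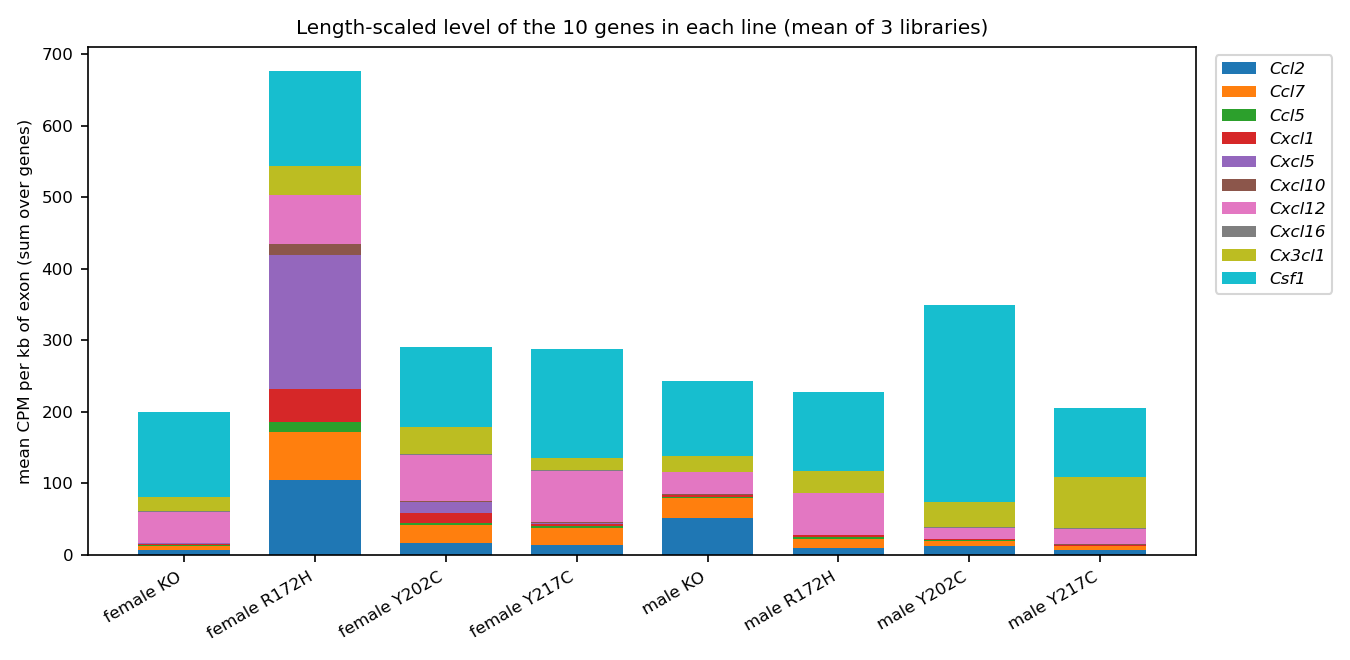
Mean CPM per kilobase of exon of the 10 genes, stacked for each of the 8 lines (mean of 3 libraries). Csf1 is the largest part in 7 lines, and Cxcl5 is the largest in female R172H, where all 10 genes sum to 676.4.

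Several of the genes lie in chemokine clusters, and their measured neighbors were read beside them. Ccl9, which lies near Ccl5 on chromosome 11, rose in all 3 female mutant lines, by 3.12 in R172H, 3.43 in Y202C, and 1.14 in Y217C on the log2 scale, and fell by 0.76, 1.08, and 2.65 in the male lines. Between Cxcl5 and Cxcl1 on chromosome 5 lie Ppbp and Cxcl3, both neutrophil attractants. Among the female lines they were highest in Y217C, where Cxcl5 and Cxcl1 rose least. Ppbp was at 8.84 CPM there against 0.805 CPM in female p53 KO, and Cxcl3 at 4.74 against 0.0838 CPM, with 478, 324, and 304 counts in female Y217C and 4, 6, and 14 in female p53 KO. Cxcl3 exceeded 1 CPM in female Y217C libraries alone and is in the table only through that line, so its being called there follows from the filter and no test is given. In male R172H and male Y217C no library held a Cxcl3 read, which places it at least 2.85-fold and 2.58-fold below male p53 KO with a floor of 3 counts per library. Ppbp held 12 counts summed over male Y202C against 288 in male p53 KO, a 16.9-fold difference with a counting interval from 9.53 to 33.1. Next to Cxcl10, its relative Cxcl9 had no read in female p53 KO and 1522, 1069, and 1157 counts in female R172H, at least 375.3-fold higher with the same floor. In the other 6 lines Cxcl9 had at most 16 counts in a library. Cxcl9 is in the table only through female R172H, so its being called there follows from the filter.

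Of 28 other chemokine genes listed, 9 were measured. In female R172H 6 rose and none fell, where 34.4% of all genes rose and 35.3% fell. In female Y202C 5 rose and 2 fell (34.3% and 34.3% of all genes), and in female Y217C 7 rose and 1 fell (28% and 28.7%). In male R172H none rose and 3 fell, where 20.2% of all genes rose and 20.5% fell. In male Y202C 5 rose and 2 fell (37.6% and 35.4% of all genes), and in male Y217C 3 rose and 3 fell, near the shares of 34.9% and 35.6% over all genes. These 9 include genes that are in the table only through a line where they are high. The same shares of all genes are the background of the counts of the other lists. Cxcl14 rose in female R172H and Y202C, to 70.7 and 27.7 CPM from 8.75 CPM in p53 KO, and fell by 5.92 ± 0.22 on the log2 scale in female Y217C, to 0.148 CPM. In males it was highest in Y217C, at 226.3 CPM against 6.15 CPM in p53 KO. Of 16 receptors of the 10 ligands, 4 were measured. Ackr3, which scavenges Cxcl12, fell by 3.30 ± 0.09 in female Y217C, from 50.8 to 5.16 CPM. In female R172H it was instead higher, at 300.8 CPM, and in female Y202C it was at 30.5 CPM. In males it was at 37.4 CPM in p53 KO and between 7.93 and 15.4 CPM in the mutant lines. Cxcr4 was at 3.25 CPM in male Y217C and 0.0752 CPM in male p53 KO, but it exceeded 1 CPM in no other line and is in the table only through male Y217C, so this difference follows from the filter. Cxcr6, the receptor of Cxcl16, fell by 2.67 ± 0.19 in male Y202C. Of the other colony-stimulating factors and their receptors 2 of 7 were measured. Il34, the second ligand of Csf1r, rose in all 3 female mutant lines, by 0.83, 1.02, and 1.13, and fell by 1.32 in male Y217C.

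Genes that act upstream of chemokines mostly rose in female R172H and Y202C. Of 12 measured cytokines and receptors of this kind, 11 rose and none fell in female R172H, and the same counts were found in female Y202C, with a median log2 fold change of 1.10 and 1.005, where 34.4% and 34.3% of all genes rose. In female Y217C 7 rose and 1 fell. In male R172H 4 rose and 1 fell (20.2% and 20.5% of all genes), in male Y202C 6 rose and 3 fell (37.6% and 35.4%), and in male Y217C 3 rose and 5 fell (34.9% and 35.6%), with a median of -0.11 in the last. Il1r1, the interleukin-1 receptor, was at 89.3 ± 8.82 CPM in female Y202C and 7.88 ± 0.908 CPM in female p53 KO (log2 3.51 ± 0.11), and fell by 1.97 in male Y202C and by 1.89 in male Y217C. Tlr2, a receptor for bacterial lipoproteins, rose by 3.09 ± 0.15 in female R172H and also rose in male Y202C and Y217C, by 1.46 and 1.59. Of 14 measured interferon signaling factors, 11 rose and none fell in female R172H, with Irf7 at 85.8 ± 13.7 against 1.05 ± 0.0894 CPM. In female Y202C 12 rose and 2 fell, in female Y217C 6 rose and 1 fell, and in male R172H 5 rose and 1 fell. In male Y202C 4 rose and 4 fell, Irf1 among the latter by 2.05 ± 0.09, and in male Y217C 3 rose and 8 fell.

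All 15 listed subunits, kinases, and inhibitors of NF-kB were measured. In female R172H 9 rose and 4 fell, in female Y202C 8 rose and 4 fell, and in female Y217C 5 rose and 2 fell. In male R172H 9 rose and 1 fell, where 20.2% of all genes rose and 20.5% fell. In male Y202C 7 rose and 5 fell, and in male Y217C 3 rose and 11 fell, where 34.9% of all genes rose and 35.6% fell. Relb (log2 1.11 ± 0.10) and the inhibitor gene Nfkbie (log2 2.09 ± 0.09) rose in female R172H, whereas Tnfaip3, which restrains NF-kB signaling, fell by 2.09 ± 0.16. Of 5 measured proteases that release or trim these ligands, 4 rose and 1 fell in female R172H, 2 rose and 1 fell in female Y202C, and 1 rose and 1 fell in female Y217C. In males 4 rose and none fell in R172H, 1 rose and 3 fell in Y202C, and 1 rose and 2 fell in Y217C. Mmp9 rose in female R172H from 0.135 to 6.98 CPM, and Mmp2 fell in male Y217C from 628 to 155.3 CPM. Most of the 8 fibroblast and meningeal genes were called in the direction of most of the 10 genes in 4 of the 6 mutant lines. In female Y217C and male R172H more of those called went that way than against it, but most of the 8 did not. All 8 rose in female R172H and all 8 in female Y202C, and 6 fell and 1 rose in male Y202C and in male Y217C. Lum, 1 of the 8, exceeded 1 CPM in female R172H alone and is in the table only through that line. Its rise there follows from the filter. In female Y217C 3 rose and 2 fell, and the summed level was 31600 to 33410 CPM, below p53 KO. In male R172H 1 rose and 3 fell, and the summed level of 42880 to 46920 CPM overlapped that of p53 KO. Their summed level was 55320 to 63770 CPM in female R172H and 34910 to 37230 CPM in female p53 KO. It was 17110 to 19340 CPM in male Y202C, 23950 to 25190 CPM in male Y217C, and 39670 to 46260 CPM in male p53 KO. The part of these cells or genes in the chemokine levels was not tested.

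**Figure D5:**
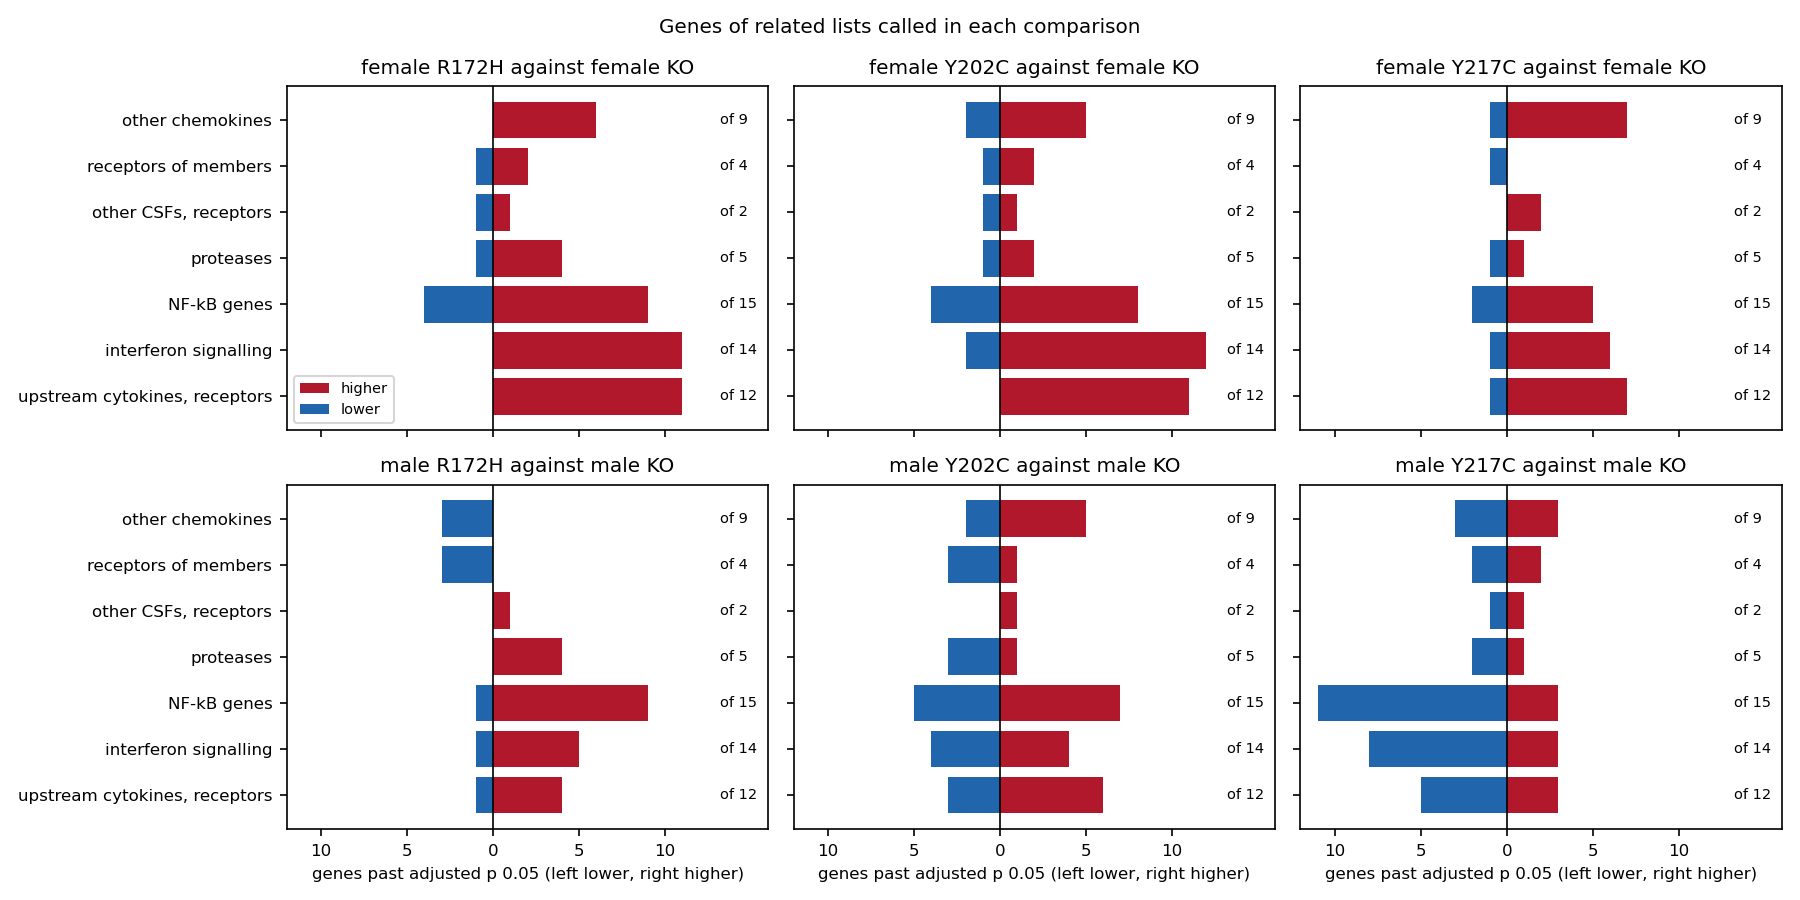
Number of genes of 7 related lists called lower (left, blue) and higher (right, red) in each mutant line against the p53 KO line of its sex, at an adjusted p of at most 0.05. Numbers at the right give the genes measured. Interferon signaling and upstream cytokine genes are mostly higher in female R172H and Y202C, and NF-kB genes mostly lower in male Y217C.

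Over the 8 line means of log2 CPM, the 15 pairs among Ccl2, Ccl7, Ccl5, Cxcl1, Cxcl5, and Cxcl10 had Pearson correlations between 0.69 and 0.91. These 6 genes are those highest in female R172H, so their likeness across line means follows in part from how they were grouped. Cxcl12, outside this group, correlated between 0.64 and 0.68 with Ccl7, Ccl5, Cxcl1, and Cxcl5. With Cxcl10 it was at 0.35 and with Ccl2 at 0.26. The pairs with Csf1 lay between -0.37 and 0.11, and those with Cx3cl1 between -0.66 and 0.29. Within lines, the deviations of the same 6 genes from their line means correlated between -0.06 and 0.61 over 24 libraries. Pairs with Cxcl5, which had few reads in the male mutant lines, lay between -0.05 and 0.03. Ccl2 with Ccl7 was at -0.06, and the remaining pairs lay between 0.12 and 0.61. The likeness of these 6 genes was thus weaker within lines than across line means, but not absent. Within lines the pairs with Csf1 were all negative, between -0.67 and -0.08, and those with Cx3cl1 lay between -0.31 and 0.575. The highest of all 45 pairs within lines was Ccl5 with Cxcl12, at 0.70. The gene most like Cxcl5 over the 8 lines was Tap1 (r = 0.99), followed by Tap2 and Psmb9, which serve antigen presentation on MHC class I. Cxcl1 was most like the MHC gene H2-T22 (r = 0.99) and then Ifi35, and Ccl5 was most like Ptx3 (r = 0.97) and then Uba7. Cxcl10 was most like Apod (r = 0.97), Ccl2 like Gm2830 (r = 0.94), Ccl7 like B3gnt9 (r = 0.95), and Cxcl16 like Rpl19-ps4 (r = 0.94). Cxcl12 was most like Scn3a (r = 0.98), Cx3cl1 like Eya4 (r = 0.98), and Csf1 like Crls1 (r = 0.98). With 8 points that share p53 KO cultures and, in female R172H, a single line far from the rest, these correlations are given as a description.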

How the data were processed

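The deposited values are raw read counts for 14427 genes, which the authors made by aligning poly(A) RNA-seq reads of 24 libraries with STAR 2.5.1a to an Ensembl mouse assembly, counting with featureCounts, and removing ribosomal and low-count genes. The strand of counting is not given in the sources used here. GENCODE M21 on GRCm38 gave symbols for 14350 identifiers, and promoters came from RefSeq. A minimum of 1 CPM in 2 libraries removed no gene.

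In R 4.3.3, edgeR 4.0.16 was used for TMM scaling and a quasi-likelihood fit with 1 mean per line over all libraries, and p-values were corrected by the Benjamini-Hochberg procedure. Each standard error is the log2 fold change divided by the root of its F statistic. The fit was tested on simulated data. Alternatives were limma 3.58.1 with voomWithQualityWeights (the test of the study's methods), DESeq2 1.42.0, other scaling, filters and thresholds, fits of the compared lines only, the replicate block, and leaving out each library. Replicates of a line differed by more than counting noise.

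The genes and lists were chosen with earlier results of these data known. Named besides the 10 genes are Trp53, measured neighbors in their clusters, up to 2 of the largest rises and falls per list among genes with 10 or more counts throughout the higher line, and the genes most correlated with each over the lines. Other values of these genes, Il34 in females, and the marker genes read beside a result were picked after they were seen, and not every gene covered by the rule is reported. Exome, ChIP-seq, growth, and tumor experiments were not analysed here. Some items of the lists are not reported here.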

Additional observations from a re-analysis of the deposited data

Results flagged for a closer look

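The effect of a mutation differed between the male and the female lines, by edgeR's test of the difference itself, for 28 of the 30 pairs of a gene and a mutation. Each value below is the male log2 effect minus the female log2 effect, for R172H, Y202C, and Y217C in this order. Ccl2 had differences of -6.44, -3.30, and -3.96. Ccl7 had differences of -4.53, -4.23, and -4.26. Ccl5 had differences of -3.79, -2.17, and -3.48. Cxcl1 had differences of -4.04, -3.15, and -2.06. Cxcl5 had differences of -13.63, -9.24, and -6.80. Cxcl10 had differences of -7.07, -3.15, and -1.53. Cxcl12 had differences of 0.32, -1.54, and -1.18. Cxcl16 had differences of -0.86, -0.99, and -1.55. Cx3cl1 differed by -0.55 for R172H and 1.99 for Y217C, and Csf1 by 1.46 for Y202C and -0.51 for Y217C. The largest adjusted p among the 28 was 0.00522, for Cxcl12 with R172H. Of the 28 differences 25 were negative. Those of Cxcl5 rest on male mutant libraries with 0 to 10 reads, and their size is uncertain. Each sex is 1 culture, so sex and culture cannot be told apart, and 54.8% to 68% of all genes showed such a difference. The 3 differences of a gene share the male and female p53 KO libraries, so they are not independent. Ccl2, for example, was at 57.99 CPM in male and 7.58 CPM in female p53 KO. In Y202C it was at 14.64 CPM in males and 18.87 CPM in females.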

How the results depend on the processing

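Over the 10 genes, the 10 comparisons, and the 10 alternatives that keep all libraries, no value of 1000 changed direction, 978 kept their side of the threshold, 18 lost it, and 4 gained it. Leaving out 1 library changed no direction among 780 values, of which 18 lost the threshold and 3 gained it. The counts of all genes moved most when an absolute log2 fold change above 0.5 was required. Called genes were then 5603, 5435, and 3657 for female R172H, Y202C, and Y217C, and 1861, 6531, and 5812 for males. The differences between the sexes were then called for 5218 genes with R172H and 5054 with Y217C, and male against female p53 KO for 1730. With limma the p53 KO lines differed at 7186 genes instead of 4482. Scaling by library totals raised the share of calls that were higher in female Y217C from 49.3% to 60.7%, and in male against female p53 KO from 55.5% to 65.7%. It moved the median of all genes in male Y217C by 0.104.

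Replicate numbers did not pair the libraries. In no comparison did every same-numbered pair of deviations correlate above 0.1, and 21 of 42 libraries correlated best with the library of their own number. With the replicate block, the calls numbered 9963, 9791, and 8035 in females and 5689, 10439, and 10065 in males, 8220, 9684, and 7794 for the differences between the sexes, and 4313 between the p53 KO lines. The counts among the 10 genes stayed at 9, 9, 10, 8, 9, 9, 9, 9, 10, and 7, in the same order. Leaving out 1 library gave 9384 to 9811, 9277 to 9707, and 7306 to 7686 genes in females, and 4781 to 5552, 10042 to 10219, and 9514 to 9786 in males. The differences gave 7778 to 8226, 9451 to 9815, and 7417 to 7858, and the p53 KO lines 3524 to 4274. Among the 10 genes the counts were 9 to 9, 8 to 9, and 9 to 10 in females, 8 to 8, 8 to 9, and 8 to 9 in males, 9 to 9, 9 to 10, and 10 to 10 for the differences, and 5 to 7 for p53 KO. The calls of the 10 genes that were lost by leaving out 1 library are named beside their genes. Those lost at stricter thresholds are not all named there. An absolute log2 fold change above 0.5 removed 11 calls, and an adjusted p of at most 0.01 removed 6. The 11 include Cx3cl1 in male R172H and female Y217C, Cxcl12 in male Y217C, and the difference of Cxcl12 for R172H. A line left with 2 libraries shared the spread of all lines. Depth limits Cxcl5 in the male mutant lines, Cxcl3, and Cxcl9, whose fitted values rest on few reads.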
